A study of Mus musculus with 6 samples.

Results

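Purinergic receptors sense nucleotides and adenosine outside the cell. The genes described here are P2rx1, P2rx3, P2rx4, P2rx5, P2rx6, P2rx7, P2ry1, P2ry2, Adora1 and Adora2b, which make 10 of the 56691 gene rows of the count table. They were selected by gene symbol, and the set was chosen from earlier results of these same libraries, in which P2rx1 stood among the largest rises. The values with HMGB2 and with the vector are therefore given as a description of these receptors, with no p-value. Of the 10 genes, 8 had enough counts to be fitted, and P2rx3 and P2rx6 had too few.

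The libraries are bulk RNA sequencing of primary cardiomyocytes from the hearts of newborn mice. Every culture received an adenovirus (Ad5) with the promoter of cardiac troponin T (cTNT), which is active in cardiomyocytes. In 3 libraries the virus carried HMGB2, a DNA-bending chromatin protein, and the 3 control libraries (vector 1 to 3) received the vector alone. The labels give the control genotype as Control and the other as HMGB2 overexpression, and the sources used here do not give strain, age in days, dose or time of collection. Nothing in the labels says whether replicates are separate cultures or animals, so the p-values below measure only the spread between these libraries, which may be technical.

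P2X receptors are cation channels opened by extracellular ATP, and P2Y receptors are G protein-coupled receptors for ATP, ADP and related nucleotides. Ectonucleotidases degrade these ligands to adenosine, which acts on the G protein-coupled adenosine receptors. In the heart, the A1 adenosine receptor slows the rate and lowers cAMP through inhibitory G proteins and opens a potassium channel, while P2X receptors carry inward current and P2Y receptors raise calcium through phospholipase C.

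The libraries held between 12498215 and 16618365 counts, and 15429 genes were tested with edgeR, with Benjamini-Hochberg (BH) adjustment. Hmgb2 itself went from 46.8, 44.8 and 36.3 CPM (counts relative to a library's TMM-scaled total) in the vector libraries to 175, 196 and 182 CPM with HMGB2. Whether reads of the viral insert count toward this gene is not stated in those sources. Vector 1 and HMGB2 3 stood apart from the other libraries of their groups. Compared with each other library of its group, their counts gave a chi-square of 14.4 to 20.2 per degree of freedom, against 2.75 for vector 2 and 3 and 2.01 for HMGB2 1 and 2. The summed level of 7 cardiomyocyte markers (Tnnt2, Myh6, Myh7, Actn2, Ttn, Ryr2 and Nppa) was 15460 to 16480 CPM with the vector and 21300 to 23540 CPM with HMGB2, and all 7 were present in every library. Of these 7, 4 rose (edgeR, BH-adjusted p under 0.05), while Ttn, Ryr2 and Nppa overlapped between the groups and did not pass. Transcripts of other heart cells were present too. The sums of 7 endothelial markers were 2832 to 2925 CPM with the vector and 2494 to 2503 CPM with HMGB2, those of 7 fibroblast markers 4203 to 4272 and 3697 to 3769 CPM, and those of 9 macrophage markers 94.4 to 125.8 and 71.6 to 85.1 CPM. Most single markers of these 3 lists did not pass. Those that fell were 2 of 7 endothelial, 2 of 7 fibroblast and 3 of 8 tested macrophage markers (edgeR, BH-adjusted p under 0.05), and none rose. In bulk libraries such as these, fewer cells of a type and less RNA per cell cannot be told apart.

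The promoters of the 2 receptor genes that stood higher with HMGB2 are shown first, because they differ in their number of CpG dinucleotides. Each sequence runs from 250 bases before to 50 bases after the RefSeq transcription start (GRCm38.p6), 5′ to 3′ on the strand of the gene. Capitals mark matches to any of 8 motifs searched on both strands, which are the E-box (CANNTG), a GATA site (AGATAA), an interferon regulatory factor core (GAAANNGAA), an AP-1 site (TGANTCA), a heat shock element core (GAANNTTC), a TATA box (TATAAA), an open form of the MEF2 site (CTANNNNTA) and a GC box (GGGCGG). Matches of different motifs did not overlap each other in these promoters. P2rx1 lies at chr11:72998895-72999194 on the plus strand, and Adora1 at chr1:134235408-134235707 on the minus strand, the first of 2 starts that RefSeq gives it.
P2rx1: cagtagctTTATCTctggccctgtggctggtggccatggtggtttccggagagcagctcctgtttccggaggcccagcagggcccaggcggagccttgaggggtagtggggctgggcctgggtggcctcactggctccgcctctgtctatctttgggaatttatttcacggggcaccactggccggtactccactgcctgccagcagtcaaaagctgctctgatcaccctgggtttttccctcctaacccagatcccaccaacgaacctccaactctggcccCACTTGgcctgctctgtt
Adora1: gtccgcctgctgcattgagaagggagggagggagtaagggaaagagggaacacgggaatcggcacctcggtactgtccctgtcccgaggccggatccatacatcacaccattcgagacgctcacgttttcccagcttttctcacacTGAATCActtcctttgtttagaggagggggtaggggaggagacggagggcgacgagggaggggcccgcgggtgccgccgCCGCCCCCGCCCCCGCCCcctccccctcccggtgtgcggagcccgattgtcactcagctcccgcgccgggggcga

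The P2rx1 promoter held 7 CpG dinucleotides and 60.7% G and C. It matched a GATA site, found in 11.18% of the 32851 promoters of this length, and an E-box, found in 72.31%. It held no match to the interferon regulatory factor core (8.56% of promoters), the MEF2 form (21.04%), the heat shock element core (7.86%), the AP-1 site (7.81%), the TATA box (13.62%) or the GC box (35.66%). The Adora1 window at the first start held 26 CpG dinucleotides and 66.0% G and C, with an AP-1 match and 3 adjacent GC boxes. The window at its second start (chr1:134234807-134235106) held 24 CpG dinucleotides, 66.0% G and C and 2 E-boxes, with no AP-1 match and no GC box. The median over all promoters was 7 CpG dinucleotides and 52.7% G and C. RefSeq promoters were found for 8 of the 10 symbols. A match is a stretch of letters and not a measured site.

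P2rx1, an ATP-gated cation channel known from smooth muscle and platelets, had the largest difference of the 10 genes. Its counts were 36, 32 and 43 in the vector libraries and 532, 440 and 456 in the HMGB2 libraries. On the CPM scale these are 2.89, 2.34 and 3.08 against 31.98, 30.3 and 27.6. The groups lay far apart, and the lowest HMGB2 library held many times the highest vector library. Mean levels were 2.77 ± 0.384 CPM and 29.99 ± 2.19 CPM (SD, n = 3 each), a 10.8-fold difference, with a log2 fold change of 3.43 (SE 0.13). P2rx1 ranked 7 of the 15429 tested genes by log2 fold change. The log2 fold change lay between 3.32 and 3.52 under all 13 alternatives, which include leaving out each library and leaving out vector 1 and HMGB2 3 together. P2rx1 (ENSMUSG00000020787) lies on GRCm38 chromosome 11 from 72999103 to 73015200, plus strand, and shares no exon base with another gene of GENCODE M21. No other transcript matched it at 95% identity or more over at least 100 bases.

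The other receptors with enough counts differed much less, and Adora1 was the next. Adora1 encodes the A1 adenosine receptor of cardiomyocytes. It held 34.7, 40.5 and 44.4 CPM with the vector and 60.7, 55.6 and 54.9 CPM with HMGB2. All HMGB2 libraries lay above all vector libraries, and vector 1, which stands apart, was the lowest. The mean went from 39.9 ± 4.89 to 57.1 ± 3.17 CPM, 1.43-fold, with a log2 fold change of 0.52 (SE 0.10), or 0.43 without vector 1 and 0.46 without both libraries that stand apart. This difference lies within the range of the 7 cardiomyocyte markers, whose log2 fold changes ran from 0.13 to 0.84 (median 0.68); their part in it was not tested. Adora1 (ENSMUSG00000042429, GRCm38 chromosome 1, 134199223 to 134235431, minus strand) shares 1162 exon bases with Mybph on the other strand, and no source used here states the strand setting of the counting. If the counting ignored strand, reads of the 2 genes cannot be told apart there. Mybph, a myosin-binding protein gene, held 100 counts over the 6 libraries, at 0.541 ± 0.341 CPM with the vector and 1.63 ± 0.448 CPM with HMGB2. It rose (log2 fold change 1.57, edgeR, BH-adjusted p = 0.0293), but not without vector 1 (0.0507), vector 2 (0.108), HMGB2 1 (0.121) or HMGB2 2 (0.0767).

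**Figure D1:**
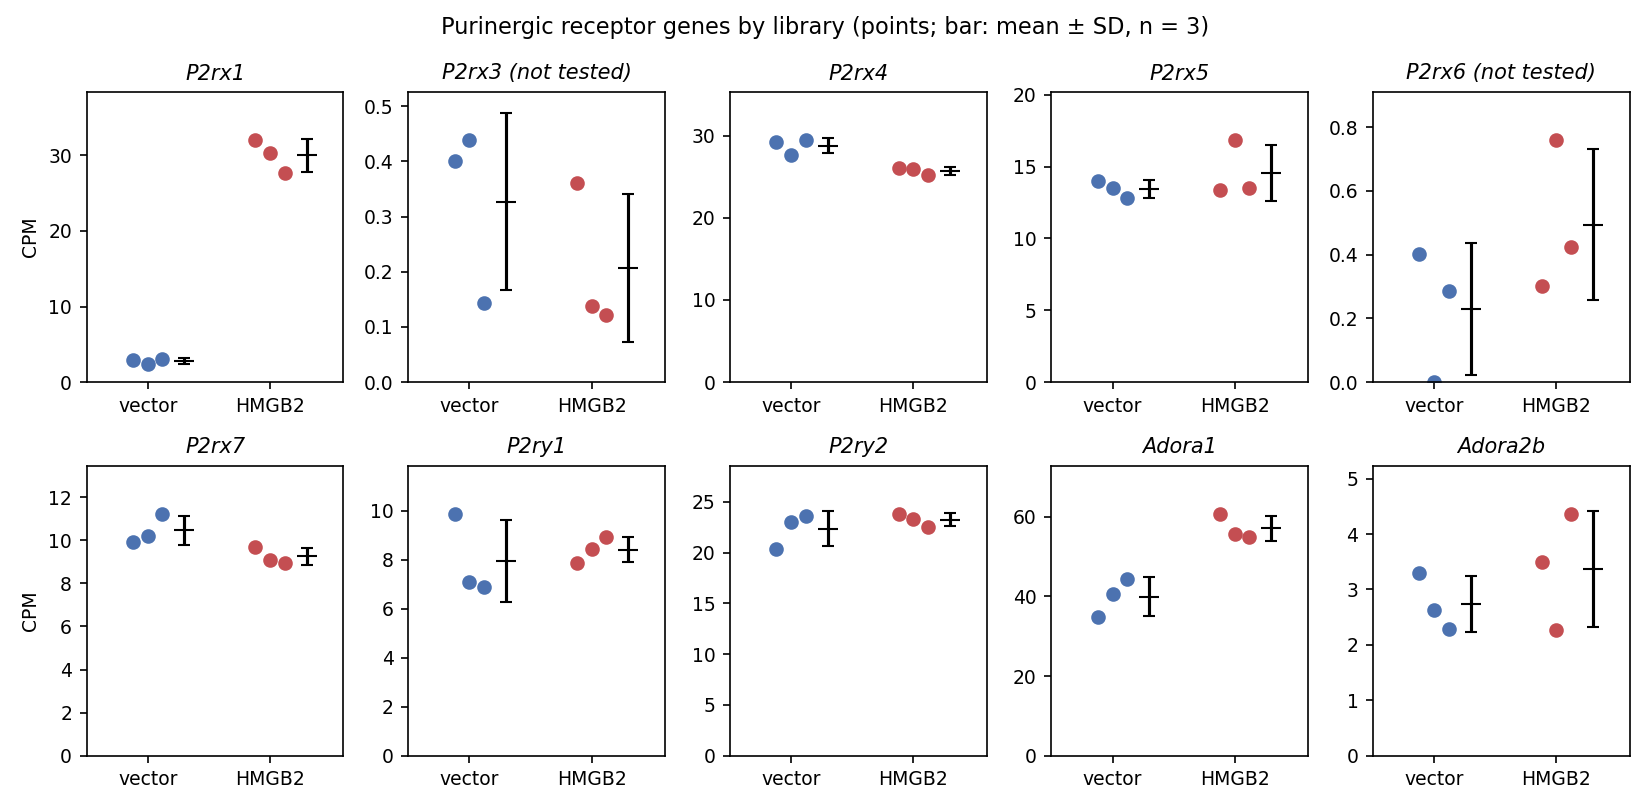
CPM (vertical axes, each from 0) of the 10 receptor genes in the 3 vector (blue) and 3 HMGB2 (red) libraries, one panel per gene, with points for libraries and black bars for the mean ± SD. P2rx1 goes from 2.77 to 29.99 CPM on average and Adora1 from 39.9 to 57.1 CPM, while the ranges of P2rx3, P2rx5, P2rx6, P2ry1, P2ry2 and Adora2b overlap between groups.

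P2rx4 and P2rx7 were slightly lower with HMGB2. These neighbouring P2X genes, known for their roles in macrophages and other immune cells, lie 16.11 kb apart on chromosome 5 on the same strand. P2rx4 held 29.2, 27.7 and 29.4 CPM with the vector and 26.1, 25.9 and 25.1 CPM with HMGB2, a log2 fold change of -0.16 (SE 0.08). P2rx7, the channel that opens at high ATP and triggers the inflammasome, held 9.94, 10.2 and 11.2 CPM against 9.68, 9.10 and 8.97 CPM, a log2 fold change of -0.18 (SE 0.11). The ranges of the groups did not overlap for either gene, but vector levels were only 1.12-fold and 1.13-fold those with HMGB2, and neither gene passed the threshold used for all genes. P2rx4 shares 131 bases at 95.4% identity with Tmem214, and P2rx7 shares 119 exon bases with the microRNA gene Mir8115, which had 0 counts. Of the 8 macrophage markers tested, 3 fell (C1qa, Lyz2 and Ptprc, by 1.38, 0.58 and 0.93 on the log2 scale; edgeR, BH-adjusted p = 0.0174, 0.0175 and 0.0246), and the median of the 8 was -0.45. The part of these cells in the P2rx4 and P2rx7 values was not tested.

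P2rx5, a P2X channel of striated muscle and other tissues, differed by less than the spread between libraries. It held 14.03, 13.5 and 12.8 CPM with the vector and 13.3, 16.8 and 13.5 CPM with HMGB2, so that HMGB2 2 was high and the other libraries of its group lay within the vector range. Its log2 fold change was 0.11 (SE 0.12). P2rx5 lies on chromosome 11 as P2rx1 does, from 73160421 to 73172685, so both genes sit within the same stretch of the chromosome.

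The P2Y members showed no difference beyond their spread. P2ry2, the receptor for ATP and UTP, held 20.4, 23.0 and 23.6 CPM with the vector and 23.8, 23.3 and 22.6 CPM with HMGB2 (log2 fold change 0.06, SE 0.09). P2ry1, the Gq-coupled ADP receptor, held 9.86, 7.08 and 6.87 CPM against 7.88, 8.41 and 8.91 CPM (log2 fold change 0.09, SE 0.16). The high vector value of P2ry1 came from vector 1, and without that library the log2 fold change was 0.27. P2ry1 shares 992 exon bases with the antisense gene Gm37035, which had 3 counts over the 6 libraries. Adora2b, the low-affinity adenosine receptor that raises cAMP, held 3.29, 2.63 and 2.29 CPM with the vector and 3.49, 2.28 and 4.36 CPM with HMGB2. Its groups overlapped, the log2 fold change was 0.32 (SE 0.27), and its counts of 32 to 72 a library limit the precision. The log2 fold change was 0.09 without HMGB2 3, 0.20 without vector 3 and 0.53 without HMGB2 2.

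P2rx3 and P2rx6 were near the limit of detection. P2rx3, a channel of sensory neurons, had 5, 6 and 2 counts with the vector and 6, 2 and 2 with HMGB2. P2rx6, a muscle-expressed P2X subunit, had 5, 0 and 4 counts with the vector and 5, 11 and 7 with HMGB2. The count of 0 in vector 2 allows up to 3 counts, or 0.219 CPM, by counting error alone. A difference between the groups was not detectable at this depth for either gene. Exons of P2rx3 share 51 bases with Ssrp1 and those of P2rx6 share 554 bases with Slc7a4, both on the other strand. Slc7a4 held 328 counts over the 6 libraries and rose with HMGB2 from 2.58 ± 0.367 to 4.67 ± 0.698 CPM (log2 fold change 0.85, edgeR, BH-adjusted p = 0.0133; 0.0555 without vector 2), so the few P2rx6 counts are uncertain.

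Of the 8 receptors fitted, 2 passed the threshold of an adjusted p under 0.05 upward (P2rx1 and Adora1) and 0 downward. Among all 15429 genes 25.2% passed it, 14.4% upward and 10.8% downward. The HMGB2 libraries lay wholly above the vector libraries for 2 of the 8 and wholly below for 2 (P2rx4 and P2rx7), against 21.6% and 18.9% of all tested genes. The receptors were chosen with these values known, so nothing is read from the counts. The median log2 fold change of the 8 was 0.10, and that of all tested genes was -0.0022.

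Levels of different genes were compared per length, on the authors' FPKM scale (fragments relative to a gene's length and the library's size). With the vector the order was Adora1 (6.83 ± 0.812 FPKM), P2ry2 (5.64 ± 0.407), P2rx5 (5.57 ± 0.275), P2rx4 (4.06 ± 0.156), P2ry1 (1.83 ± 0.396), P2rx7 (1.74 ± 0.108), Adora2b (1.47 ± 0.282), P2rx1 (1.05 ± 0.147), P2rx3 (0.113 ± 0.0551) and P2rx6 (0.0567 ± 0.0513 FPKM; SD, n = 3). The ranges of P2ry2 and P2rx5 overlapped, as did those of P2ry1 and P2rx7, of P2rx7 and Adora2b, and of P2rx3 and P2rx6. With HMGB2, P2rx1 moved from place 8 to place 1, at 11.5 ± 0.763 FPKM, with its range (10.68 to 12.2 FPKM) above that of Adora1 (9.61 to 10.51 FPKM). This order rests on the gene lengths used. In CPM, which takes no account of length, P2rx1 (29.99 ± 2.19) stood below Adora1 (57.1 ± 3.17) with HMGB2. The next were Adora1 (9.92 ± 0.514), P2rx5 (6.11 ± 0.8), P2ry2 (5.94 ± 0.125) and P2rx4 (3.68 ± 0.0458 FPKM). The ranges of P2rx5 and P2ry2 overlapped, and so did those of neighbours among P2ry1, Adora2b and P2rx7. The other genes ordered as P2ry1 (1.97 ± 0.135), Adora2b (1.84 ± 0.587), P2rx7 (1.56 ± 0.0551), P2rx6 (0.127 ± 0.0569) and P2rx3 (0.0733 ± 0.0493 FPKM), and P2rx6 and P2rx3 overlapped.

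The P2X family shifted toward P2rx1 as a share of transcript. Of the summed FPKM of the 7 P2X genes, P2rx1 took 8.38%, 7.22% and 9.08% in the vector libraries and 52.2%, 48.0% and 48.99% in the HMGB2 libraries. The sum of the 7 genes went from 13.1, 12.2 and 12.8 FPKM to 23.4, 24.1 and 21.8 FPKM. Without P2rx1 it was 12.02, 11.3 and 11.6 FPKM against 11.2, 12.5 and 11.1 FPKM, and the groups overlapped. The 9 P2Y genes together held 10.98 to 11.6 FPKM with the vector and 11.3 to 11.5 FPKM with HMGB2. The 4 adenosine receptor genes held 8.80, 9.41 and 10.04 FPKM with the vector and 13.6, 11.9 and 12.8 FPKM with HMGB2, of which Adora1 took 68.1% to 75.8% and 75.1% to 80.5%. These are levels of transcripts in the whole culture and not of receptors on one cell type.

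**Figure D2:**
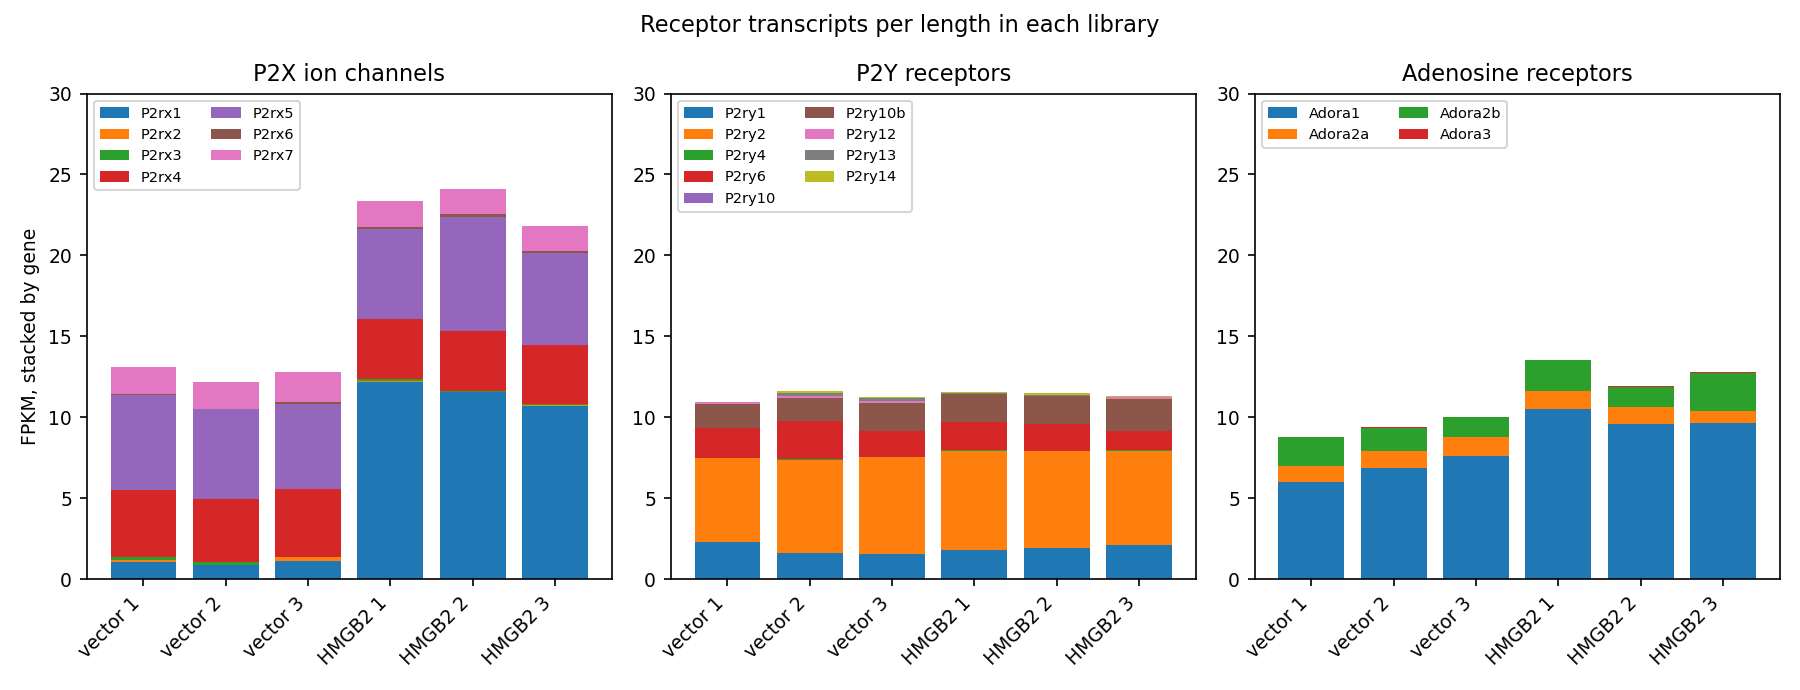
Stacked bars of FPKM (vertical axis, from 0) for the 7 P2X, 9 P2Y and 4 adenosine receptor genes in each of the 6 libraries. P2rx1 (lowest block, left panel) makes up 7.22% to 9.08% of the P2X sum with the vector and 48.0% to 52.2% with HMGB2, while the P2Y bars stay between 10.98 and 11.6 FPKM.

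Markers of smooth muscle and platelets, which also carry P2rx1, overlapped between the groups as sums. The summed level of 7 smooth muscle markers was 1131 to 1258 CPM with the vector and 1136 to 1261 CPM with HMGB2, where Cnn1 rose by 0.68 and Tagln fell by 0.51 on the log2 scale (edgeR, BH-adjusted p = 0.000342 and 0.00774) and 5 did not pass. Acta2 makes up most of this sum, at 873 ± 56.1 CPM with the vector and 879 ± 56.1 CPM with HMGB2, so the sum mostly reports that gene. The sum of 7 platelet and megakaryocyte markers was 20.6 to 23.6 CPM with the vector and 21.3 to 24.7 CPM with HMGB2, and none of the 5 tested passed. No marker of either list was at 0 in all libraries, and 2 platelet markers were at 0 in at least 1 library. The defining markers Myh11 (11.8 ± 1.49 against 11.6 ± 1.86 CPM) and Pf4 (4.65 ± 1.21 against 4.88 ± 1.53 CPM) overlapped between groups as well. Itga2b, the platelet marker with the highest level, lay higher in all HMGB2 libraries (10.55 ± 0.947 against 12.37 ± 0.735 CPM). It did not pass (edgeR, BH-adjusted p = 0.193), and the other platelet markers overlapped between the groups. The sum of 8 neuron and glia markers, whose cells can carry P2rx3, was 18.9 to 23.96 CPM with the vector and 13.3 to 17.97 CPM with HMGB2, and 3 of the 8 were at 0 in at least 1 library. Its members went both ways: Tubb3, which makes up most of the sum, fell from 13.6 ± 0.939 to 9.62 ± 1.19 CPM (edgeR, BH-adjusted p = 0.0191), while S100b rose from 0.568 ± 0.165 to 2.13 ± 0.641 CPM (BH-adjusted p = 0.0058), and the other 3 tested did not pass.

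The genes next to P2rx1 differed far less than P2rx1. Upstream on the same strand lies Atp2a3, a calcium pump gene, with a gap of 6.06 kb, and downstream on the same strand Camkk1, a kinase kinase of calmodulin signalling, with a gap of 3.81 kb. Atp2a3 held 2.24, 4.46 and 3.65 CPM with the vector and 5.83, 6.28 and 6.67 CPM with HMGB2. It rose 1.8-fold (log2 fold change 0.85, SE 0.22, edgeR, BH-adjusted p = 0.0221). It did not pass without vector 3 (BH-adjusted p = 0.0567), HMGB2 1 (0.0544), HMGB2 2 (0.066) or HMGB2 3 (0.0532). Camkk1 held 2.97 ± 0.399 and 4.25 ± 0.649 CPM, with all HMGB2 libraries above the vector libraries, but did not pass (log2 fold change 0.51, SE 0.20, edgeR, BH-adjusted p = 0.0971). Farther out, Zzef1 (log2 fold change 0.04, SE 0.19) and Ncbp3 (0.12, SE 0.10) did not pass either (edgeR, BH-adjusted p = 0.911 and 0.406).

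**Figure D3:**
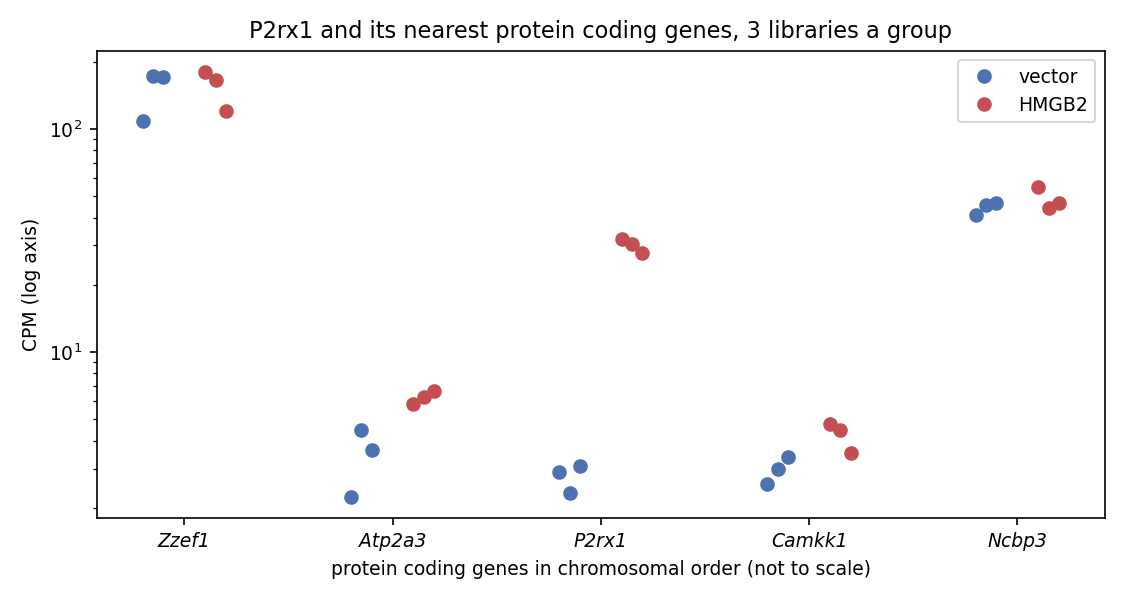
CPM (vertical log axis) of P2rx1 and the 2 nearest protein coding genes on each side, in chromosomal order and not to scale, with 3 vector (blue) and 3 HMGB2 (red) points per gene. The P2rx1 groups are separated by 10.8-fold, those of Atp2a3 by 1.8-fold, and Zzef1 and Ncbp3 overlap.

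By the shape of its values over the 6 libraries, P2rx1 was closely matched by Thrsp, a regulator of lipid synthesis (Pearson's r of log2 CPM 0.998). Others with a high r were the secreted-protein gene Lgi3 (0.995), the organic cation transporter gene Slc22a3 (0.995) and the antiviral gene Rsad2 (0.993). These 4 are among the 5 highest of the 18 genes with a log2 fold change within 0.5 of that of P2rx1. All 6 libraries of both groups enter this r, so it carries the group difference by which the genes were picked, and it is given as a description. In the vector libraries Slc22a3 had only 2, 2 and 4 counts and Thrsp 5, 5 and 8, so their likeness to P2rx1 within that group is poorly measured. Thrsp went from 0.446 ± 0.111 to 6.21 ± 0.923 CPM, and Lgi3 from 1.45 ± 0.434 to 13.65 ± 0.963 CPM. Slc22a3 went from 0.198 ± 0.0771 to 2.21 ± 0.174 CPM and Rsad2 from 17.25 ± 1.55 to 139 ± 11.65 CPM, so these genes span a wide range of levels.

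The rest of the purinergic pathway, 60 genes in 6 lists grouped by known role, moved in both directions. Of these, 43 were tested, 11 rose and 4 fell, and 28 stayed short of the threshold of 0.05. The median log2 fold change was -0.02. The shares of genes that rose and fell among all tested genes are those given above (14.4% and 10.8%). In these lists 1 gene fell without vector 2 or HMGB2 1, 2 fell without vector 3 or HMGB2 2, and 8 fell without vector 1 and HMGB2 3 together, while 8 to 13 rose without any 1 library.

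None of the other purinergic receptors passed. Of the 10 further receptor genes, 4 were tested, with a median log2 fold change of -0.08. P2ry6, the UDP receptor, held 5.45, 7.01 and 4.72 CPM with the vector and 5.05, 4.83 and 3.45 CPM with HMGB2 (log2 fold change -0.37, SE 0.21, edgeR, BH-adjusted p = 0.242). P2ry10b (5.35 ± 0.52 against 6.21 ± 0.349 CPM, adjusted p = 0.327) lay higher in all HMGB2 libraries. Adora2a (3.3 ± 0.311 against 2.97 ± 0.637 CPM, adjusted p = 0.652) and P2ry14 (0.841 ± 0.191 against 0.857 ± 0.38 CPM, adjusted p = 0.998) overlapped between the groups. P2rx2, P2ry4, P2ry12, P2ry13 and Adora3 had at most 7 counts in any library, and P2ry10 had 0 in all 6, so a difference was not detectable in them.

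Among 7 genes of nucleotide release, 5 were tested and 1 rose (median log2 fold change 0.03). Gja1, the ventricular connexin whose hemichannels can release ATP, rose 1.6-fold from 484.7, 494.6 and 501.2 to 784, 834 and 756 CPM (edgeR, BH-adjusted p = 0.000122). Ank, an exporter of ATP and pyrophosphate, held 45.3 ± 4.09 and 47.9 ± 1.27 CPM and missed the threshold (edgeR, BH-adjusted p = 0.542). The channel gene Panx1 held 12.2 ± 0.884 and 12.4 ± 1.43 CPM (edgeR, BH-adjusted p = 0.903). Gja1 is also a cardiomyocyte gene, and the cardiomyocyte markers moved the same way as given above; their part was not tested.

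Of 8 ectonucleotidases, 5 were tested, 1 rose and 2 fell (median log2 fold change -0.29). The pair that makes adenosine from ATP fell. Entpd1, which hydrolyses ATP and ADP to AMP, went from 138.8, 150.6 and 146.5 to 122, 121 and 112 CPM (log2 fold change -0.29, SE 0.07, edgeR, BH-adjusted p = 0.0148). Nt5e, which turns AMP into adenosine, went from 279, 332 and 310 to 246, 253 and 223 CPM (log2 fold change -0.35, SE 0.09, edgeR, BH-adjusted p = 0.0163). In both genes every HMGB2 library lay below every vector library. Entpd1 did not pass when vector 2 was left out (BH-adjusted p = 0.0674), vector 3 (0.0507), HMGB2 1 (0.0525) or HMGB2 2 (0.0546). Nt5e did not pass when vector 2 was left out (0.0765), vector 3 (0.0527), HMGB2 1 (0.0601) or HMGB2 3 (0.0506). Both are genes of endothelial cells and fibroblasts as well, whose markers had medians of -0.17 and -0.23 on the log2 scale; their part was not tested. Alpl, the tissue-nonspecific alkaline phosphatase, rose 3.07-fold from 3.61, 2.99 and 3.43 to 9.32, 12.3 and 9.27 CPM (edgeR, BH-adjusted p = 0.000159), and it kept its call under all 13 alternatives.

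Of 12 genes that carry or convert adenosine, 9 were tested and 2 rose (median log2 fold change -0.10). Ada, the adenosine deaminase, rose 1.49-fold from 8.81 ± 0.313 to 13.2 ± 0.964 CPM (edgeR, BH-adjusted p = 0.00529). Ampd3, an AMP deaminase, rose 1.21-fold from 140.0 ± 9.7 to 170 ± 3.41 CPM (edgeR, BH-adjusted p = 0.0215). The Ampd3 call was lost without vector 2 (0.0736), HMGB2 1 (0.0895) or HMGB2 2 (0.0692). None of the 9 fell.

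The effectors of these receptors included the largest rise of the pathway lists, that of Kcnj5. Of 17 genes, all tested, 5 rose and 2 fell (median log2 fold change 0.03). Kcnj5 and Kcnj3 encode the subunits of the potassium channel that the A1 and muscarinic receptors open. Kcnj5 rose 3.14-fold from 13.3, 12.7 and 15.7 to 41.9, 46.8 and 42.7 CPM (edgeR, BH-adjusted p = 7.61e-06), and Kcnj3 rose 2.6-fold from 14.3, 12.5 and 13.7 to 36.6, 34.3 and 34.5 CPM (BH-adjusted p = 1.01e-05). Adcy5, a cardiac adenylyl cyclase that inhibitory G proteins restrain, rose 2.32-fold from 27.8 ± 3.94 to 64.6 ± 5.09 CPM (BH-adjusted p = 6.75e-05), and Adcy6 rose 1.24-fold (BH-adjusted p = 0.0316). The latter call was lost without vector 2 (0.0965), vector 3 (0.0607), HMGB2 1 (0.122) or HMGB2 2 (0.132). The log2 fold changes of Kcnj5, Kcnj3 and Adcy5 were 1.65, 1.38 and 1.21. The cardiomyocyte markers moved the same way, by 0.13 to 0.84, though only 4 of the 7 passed the threshold. Their part in these rises was not tested.

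Along the Gq branch used by P2ry1 and P2ry2, one gene rose and another fell. Gnaq, the Gq alpha subunit, fell by 0.65 on the log2 scale from 89.1, 102.9 and 102.8 to 63.2, 61.6 and 63.4 CPM (edgeR, BH-adjusted p = 0.000364). Its close relative Gna11 held 103 ± 3.82 and 102 ± 3.59 CPM and missed the threshold (edgeR, BH-adjusted p = 0.838). Plcb1, a phospholipase C that Gq activates, rose 1.62-fold from 7.86 ± 0.877 to 12.8 ± 1.6 CPM (edgeR, BH-adjusted p = 0.00623). The 3 inositol trisphosphate receptor genes did not pass. Of the inhibitory G proteins, Gnai3, named here after its value was seen, fell by 0.24 on the log2 scale (edgeR, BH-adjusted p = 0.0395). That call was lost without vector 2 (0.131), HMGB2 1 (0.168) or HMGB2 2 (0.146). It was also lost with no filter on low counts (0.0785) and with limma on FPKM (0.0843). The others went both ways and did not pass. Their log2 fold changes were -0.33 for Gnai1, 0.01 for Gnai2 and 0.41 for Gnao1 (edgeR, BH-adjusted p = 0.0515, 0.916 and 0.0725).

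Of 6 inflammasome genes downstream of P2rx7, 3 were tested and 2 rose (median log2 fold change 0.49). Pycard, the adaptor ASC, rose 1.68-fold from 5.13, 4.67 and 4.01 to 7.88, 8.41 and 6.85 CPM (edgeR, BH-adjusted p = 0.00782). Gsdmd, the pore-forming gasdermin, rose 1.41-fold from 22.4 ± 1.86 to 31.6 ± 4.01 CPM (edgeR, BH-adjusted p = 0.0123; 0.0603 without vector 2). Casp1 did not pass, and Nlrp3, Il1b and Il18 had too few counts to be tested.

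**Figure D4:**
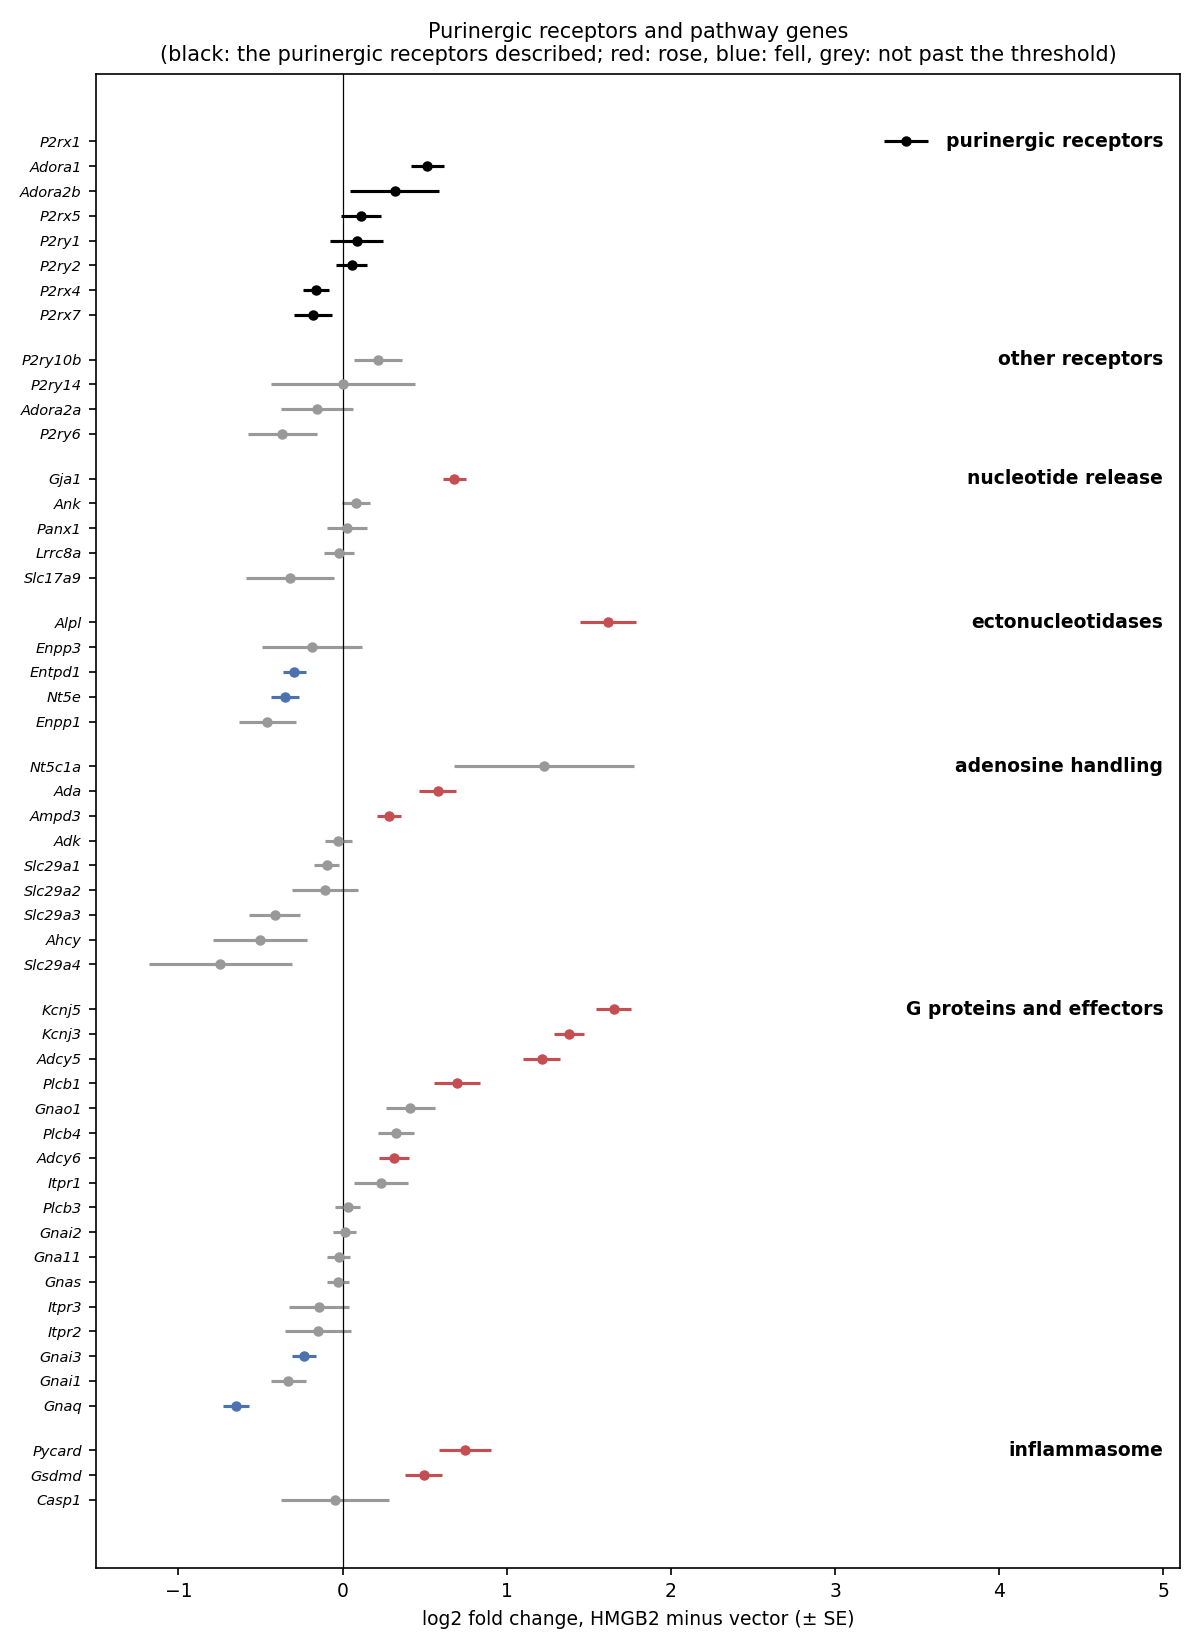
Log2 fold change, HMGB2 minus vector, with its SE (horizontal axis) for the 8 fitted receptors (black) and the 43 tested genes of the pathway lists, grouped by list; red rose, blue fell and grey did not pass the threshold. P2rx1 stands at 3.43, the next receptor, Adora1, at 0.52, and the highest pathway gene, Kcnj5, at 1.65.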

How the data were processed

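The data are 6 bulk RNA libraries, 3 per group. The authors deposited whole-number counts per Ensembl gene, not normalized, for 56691 gene rows, and a table of FPKM values, which the authors' file headers name as such. For the receptors with an FPKM of at least 1 in every library, the gene length implied by both tables had a coefficient of variation of at most 0.259% between libraries. Per the submitters' processing notes, the tools were StringTie 1.3.3b, HTSeq 0.6.1, HISAT2 2.2.1 and FastQC 0.10.1 and the build was mm10, with no role given. In the column names NC was read as the control and OE as the overexpression of the genotype labels, and the digit as the replicate number. Positions are from GENCODE M21 (GRCm38) by Ensembl identifier, since 0 of the 10 receptor genes have the same position in the deposited tables.

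Counts were fitted with edgeR 4.0.16 in R 4.3.3 (filterByExpr with minimum count 10 and minimum total 15, TMM scaling, robust quasi-likelihood F-test, Benjamini-Hochberg over 15429 genes, threshold 0.05). CPM uses TMM-scaled library sizes, and each SE was taken as the size of the log2 fold change divided by the root of F. The script was tested on simulated data. A two-sided exact permutation of 3 against 3 libraries cannot give a p under 0.1, so none was used. Alternatives were RLE scaling, no filter, DESeq2 1.42.0, limma 3.58.1 on log2(FPKM + 0.1), no robust fit, the replicate number as a block, and leaving out libraries. Near-identical transcripts were sought with blastn 2.17.0.

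The receptors, the pathway and marker lists, and the tests were chosen with earlier results of these data known. Named genes are all receptors, up to 6 members per pathway list past the threshold by smallest p (or, with fewer than 2, up to 2 by highest mean), the 5 genes most like P2rx1 (1 of them is not reported here), its 2 nearest protein coding genes on each side, genes that share its exons or those of the other receptors, and Hmgb2. Panx1, Gna11, Gnai1, Gnai2, Gnai3, Gnao1, Casp1, Nlrp3, Il1b, Il18, Tmem214 and single cell type markers fall outside this rule and were named after their values were seen.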

Additional observations from a re-analysis of the deposited data

How the results depend on the processing

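All 8 fitted receptors moved by less than 1 SD between libraries under each of 13 alternatives (104 values). With 3 libraries a group, leaving out 1 can hardly move a log2 fold change by 1 SD. Those values could therefore hardly fail, and they do not show stability. Adora2b was among the receptors counted as unmoved, although its log2 fold change ran from 0.09 to 0.53. Small log2 fold changes crossed 0 for P2ry1 (down to -0.01, without vector 3) and P2ry2 (down to -0.0054, without vector 1). Over all genes, 2224 rose and 1662 fell. The fall count was 866 to 1960 when 1 library was left out and 2986 without vector 1 and HMGB2 3 together. In the pathway lists 11 rose and 4 fell. The fall count there was 7 with no filter on low counts, 1 to 5 when 1 library was left out and 8 without vector 1 and HMGB2 3 together. The cause was not tested. Of the 15 pathway genes past the threshold, 9 kept their calls under all 13 alternatives, 6 lost them in at least 1, and 0 changed sign.

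Replicate numbers are shared by the groups, but the labels do not say that they pair samples. Deviations of same-numbered libraries correlated at -0.32, 0.23 and -0.37, and not every library correlated best with its own number. The highest value was 0.52, between vector 1 and HMGB2 3, the 2 libraries that stand apart. With 3 libraries a group, these values cannot decide whether the samples are paired. With the replicate block 1459 genes rose and 754 fell, and of the pathway lists 9 rose and 1 fell. In that fit the BH-adjusted p in edgeR was above the threshold for Entpd1 (0.0858), Nt5e (0.0679), Ampd3 (0.104), Adcy6 (0.119), Gnai3 (0.167) and Mybph (0.0841). Depth limits P2rx3 and P2rx6, which could not be fitted, and Adora2b.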
